A study of Mus musculus with 18 samples.

Results

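RNA of the whole brain sample, called input here, was compared between mice with and without an implanted glioma. The comparison was formed by the sample labels alone, and it took in 6 of the 18 libraries of the series: tumor input libraries 1 to 3 against control input libraries 1 to 3. All the mice carried Camk2a-Cre and Rpl22HA, a pair of alleles that puts an HA tag on a ribosomal protein in cells where Cre, driven by Camk2a, has been active, which in the forebrain are chiefly excitatory neurons. The input is the RNA of all cells before the tagged ribosomes are pulled down, so it is not limited to tagged cells. Tumor mice had received glioma cells in the cortex and control mice had no tumor. The sources used here do not give the glioma line, the strain, sex and age of the mice or the time between implantation and sampling, and the tissue label reads only brain. The labels number the libraries of a group from 1 to 3 without saying that each number is another mouse, so the p-values below rest on a spread between libraries that may be technical.

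Gliomas that resemble oligodendrocyte precursors grow by dividing and by spreading along axons and vessels into tissue that still holds neurons, astrocytes, myelin, microglia and vessels. The receptor for platelet-derived growth factor on such cells signals through the ERK cascade to cyclin D and so to entry into the cell cycle. Astrocytes and microglia around a glioma change their gene expression, and neurons there are known for altered excitability, in part through chloride transport and glutamate.

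The 6 libraries held 15300374, 17839717 and 16440196 counts (control 1, 2 and 3) and 23448015, 22579403 and 17853365 (tumor 1, 2 and 3), all from the library set named PD013. Levels are given as normalised read counts (CPM), scaled by the trimmed mean of M values, always in the order of libraries 1, 2 and 3. Changes are log2 folds, tumor minus control, with their standard errors, and adjusted p is from edgeR's quasi-likelihood test with Benjamini-Hochberg adjustment over the 15511 symbols tested. The input libraries of tumor mice given an mTOR inhibitor, from another library set, did not enter the contrast. They did enter the filter on low counts, the scaling and the estimate of spread behind each adjusted p and standard error. At an adjusted p under 0.05, 3798 symbols (24.5%) were higher in the tumor libraries and 3663 (23.6%) were lower. With the 6 libraries fitted alone, 14975 symbols were tested, 3804 were higher and 3078 lower. In the fit with all input libraries the sizes were unequal: 755 symbols rose by a log2 fold of 2 or more and 41 fell by as much. At 3 or more the counts were 372 and 4. In 4521 symbols (29.1%) every tumor library lay above every control library, and in 4765 (30.7%) every one lay below. The median fold over all symbols tested was -0.01, and every list below is to be read against that median and those shares.

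**Figure D1:**
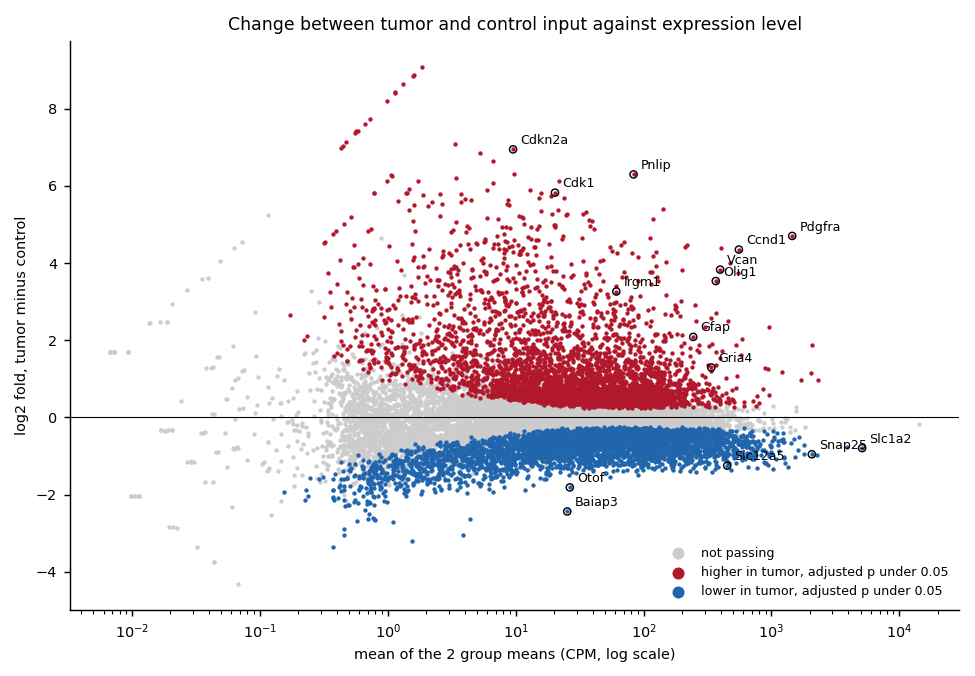
Each point is a symbol tested, with the mean of both group means on the horizontal axis (CPM, log scale) and the log2 fold of tumor minus control on the vertical axis; red and blue points passed at an adjusted p under 0.05, and circles mark genes named in the text. The red points reach far higher than the blue points reach low: 372 symbols rose by a log2 fold of 3 or more and 4 fell by as much. The points in a slanting row at the upper left have no count in control, and their folds depend on the prior count of the fit.

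Tumor library 1 stood apart from tumor libraries 2 and 3. In a principal component analysis of the 6 libraries the first component held 79.7% of the variance, with the control libraries at -53.7, -62.9 and -63, tumor library 1 at 89.9 and tumor libraries 2 and 3 at 45.2 and 44.6. Of the symbols called higher, tumor library 1 was the farthest from control in 2904 (76.5%), and of those called lower in 3049 (83.2%). Without it, 3139 of the 3797 higher symbols still tested (82.7%) and 2969 of the 3663 lower symbols (81.1%) passed in the same direction. The hemoglobin transcript Beta-s was at 668, 56.1 and 63 CPM in the tumor libraries, against 91, 66.1 and 151 in control. It did not pass (1.36 ± 0.78), and without tumor library 1 it was lower in tumor by 0.78 on the log2 scale (adjusted p = 0.049). The part of blood in the results below was not tested. Changes without tumor library 1, or without another library, are given beside many of the results, but not for every list count.

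**Figure D2:**
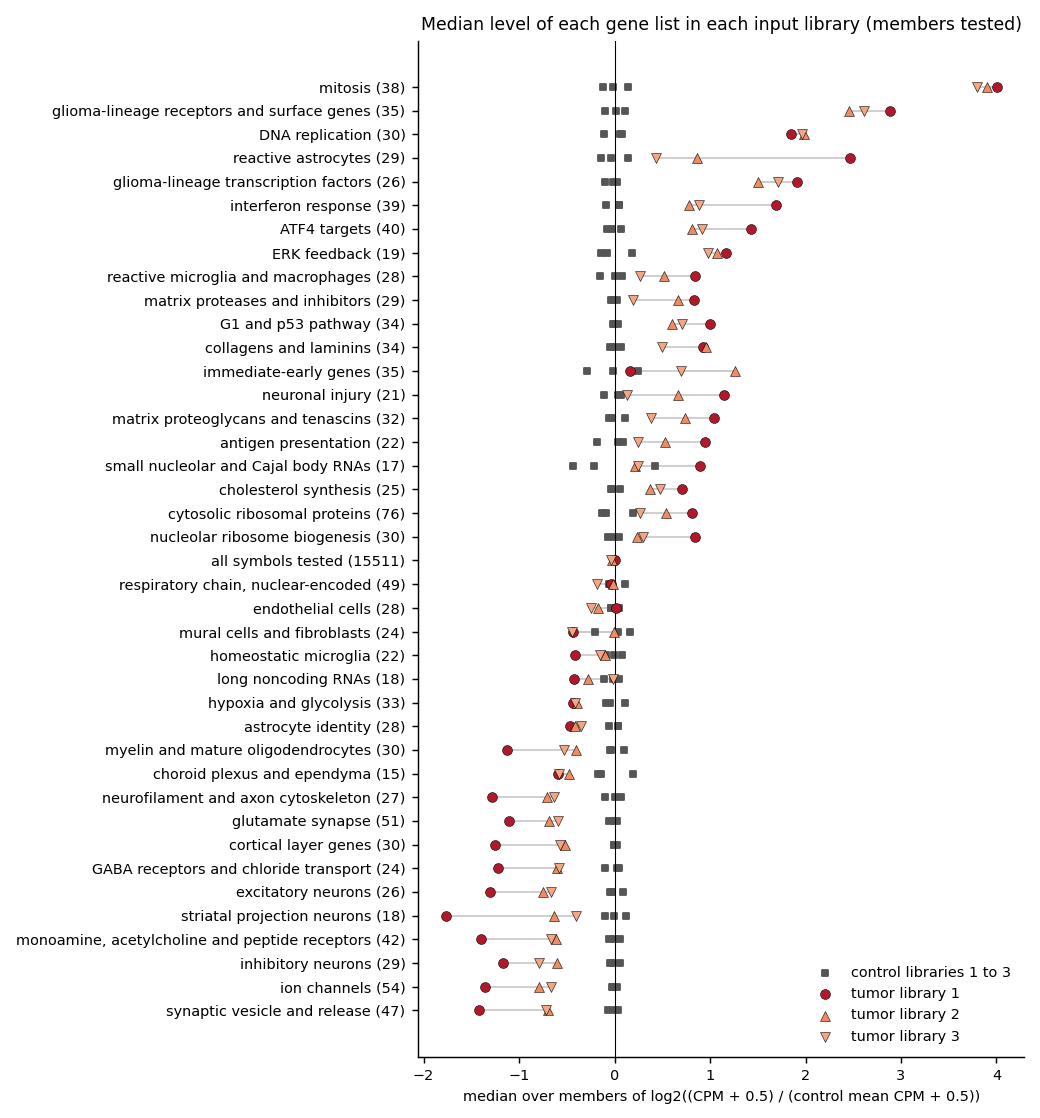
For each gene list with at least 10 members tested, the symbols show the median over members of the log2 ratio of a library's CPM to the control mean (0.5 CPM added to both): squares are control libraries, and the circle and triangles are tumor libraries 1, 2 and 3. Mitosis, DNA replication and the glioma lineage lie at like heights in all 3 tumor libraries, whereas reactive astrocyte genes reach 2.47 in tumor library 1 against 0.86 and 0.43.

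The transcription factors of the oligodendrocyte lineage and of glioma were higher in tumor: 21 of 26 tested members rose and 1 fell, with a median log2 fold of 1.67. In bulk RNA, the number of cells of a type, RNA per cell and dilution by RNA of other cells cannot be told apart, here and below. Olig1, a helix-loop-helix factor of the lineage, stood at 63.7, 58.6 and 52.8 CPM in control and 644, 672 and 712 CPM in tumor, a log2 fold of 3.53 ± 0.14 (adjusted p = 3.5e-07). The groups were far apart and the tumor libraries close together. Sox10, which specifies the oligodendrocyte lineage, went from 24.1, 20.1 and 18.1 to 263, 192 and 265 CPM (3.53 ± 0.18, adjusted p = 6.9e-07). Every tumor library lay above every control library. The ETS factor Etv4, a transcriptional output of ERK signalling, had the largest log2 fold of the list at 4.46 ± 0.27, from 7.92, 5.27 and 4.08 to 171, 103 and 107 CPM. Prrx1, Zfp488, Myc, Myt1, Sox6, Nkx2-2, Sox4, Zeb1 and Sox2 also rose, with log2 folds of 3.65 ± 0.24, 3.33 ± 0.19, 3.03 ± 0.44, 2.79 ± 0.17, 2.65 ± 0.12, 2.62 ± 0.30, 2.26 ± 0.19, 1.70 ± 0.21 and 1.63 ± 0.18. St18, a zinc finger factor, was the member that fell, from 16.3, 17.3 and 17.2 to 4.06, 12.4 and 10.5 CPM (adjusted p = 0.039). Nfib at 0.24 ± 0.11, Id2 at 0.40 ± 0.22, Tcf7l2 at -0.24 ± 0.33 and Nkx6-2 at -0.87 ± 0.36 did not pass. St18 did not pass without control library 1, 2 or 3, scaled by totals or with the 6 libraries fitted alone (adjusted p from 0.052 to 0.093), and without tumor library 1 the fold of Myc was 2.44.

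Receptors and surface genes of the lineage followed the factors, with 31 of 35 members higher, 3 lower and a median log2 fold of 2.73. Pdgfra, the receptor tyrosine kinase that marks precursors of the lineage (chr5:75151322-75198206, GRCm38), stood at 137, 94.4 and 91 CPM in control and 3423, 2281 and 2694 CPM in tumor (4.70 ± 0.25, adjusted p = 9.3e-07). Control library 1 was the highest of the controls, and even so all tumor libraries lay far above it. Cspg4, the NG2 proteoglycan, went from 48.3, 30.8 and 30.8 to 784, 848 and 682 CPM, and Gpr17, a receptor of committed precursors, from 42.6, 44.4 and 43.3 to 215, 366 and 466 CPM (log2 folds 4.40 ± 0.22 and 3.01 ± 0.25). Both were far apart between the groups, and Gpr17 was lowest in tumor library 1. Sapcd2, Dll3 (a Notch ligand), Matn4 (a matrilin), Mmp15 (a membrane-bound metalloprotease), Lhfpl3 and Cd9 (a tetraspanin) rose by log2 folds of 5.32 ± 0.24, 4.61 ± 0.23, 4.56 ± 0.35, 4.46 ± 0.19, 4.01 ± 0.24 and 3.91 ± 0.39. Ptprz1, a receptor phosphatase already abundant in control cortex, rose from 305, 334 and 304 to 1550.1, 1629.6 and 1600.2 CPM. The 3 members that fell were other growth factor receptors: Egfr at -0.71 ± 0.18, Fgfr2 at -0.73 ± 0.19 and Fgfr3 at -0.51 ± 0.13. Egfr was at 29.3, 31.8 and 30.6 CPM in control and 14.3, 23 and 18.6 CPM in tumor, with no overlap between the groups.

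Of the PDGF ligands and receptors, 2 of 7 were higher and 1 was lower, with a median log2 fold near 0 whose sign changed with the scaling. Pdgfa, a ligand of Pdgfra, rose from 24.2, 16.4 and 16.8 to 132, 56.2 and 49 CPM (2.05 ± 0.39, adjusted p = 0.0020) and was highest in tumor library 1. Pdgfb, a ligand of both receptors, fell from 30.4, 24.8 and 24.8 to 22.7, 17.4 and 18.2 CPM (-0.45 ± 0.14, adjusted p = 0.022). Its receptor Pdgfrb, a pericyte gene, was at -0.30 ± 0.15 and did not pass, like Pdgfc, Pdgfd and Pdgfrl. Pdgfb did not pass without control library 1, without tumor library 2 or 3 or scaled by totals (adjusted p from 0.062 to 0.097), and without tumor library 1 the fold of Pdgfa was 1.46.

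Genes that ERK signalling induces, many of which feed back on it, were higher in 15 of 19 members and lower in 0, with a median log2 fold of 1.07. Spry4, an inhibitor of receptor tyrosine kinase signalling, went from 16.7, 11.6 and 8.68 to 272, 192 and 212 CPM and Spry1 from 11.8, 6.79 and 5.55 to 240.4, 113 and 107 CPM (4.19 ± 0.25 and 4.26 ± 0.40). Dusp6, the phosphatase that inactivates ERK, rose from 78.5, 60.9 and 62.2 to 369, 271 and 258 CPM (2.16 ± 0.17, adjusted p = 8.0e-06). None of these genes overlapped between the groups, and tumor library 1 was the highest for each. Phlda1, Ier3, Spry2, Dusp4, Etv5 and Spred1 rose by 2.74 ± 0.34, 2.36 ± 0.42, 1.44 ± 0.23, 1.26 ± 0.20, 1.05 ± 0.17 and 0.61 ± 0.09. Spred2, Spred3, Sh2b3 and Il17rd lay between -0.14 ± 0.11 and 0.34 ± 0.17 and did not pass. Without tumor library 1 the fold of Ier3 was 1.54.

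DNA replication genes were higher in tumor in 30 of 30, with a median log2 fold of 2.19. Of these, 4 had too few counts in control to pass the filter on low counts there, so they were tested only because other libraries held more. The 26 that passed through control were all higher (median 2.06). Of the 15511 symbols tested, 1151 had too few counts in control in the same way, and lists with more than 3 such members are given with and without them. Tk1 and Cdc6 are among the 4, and Dll3, Atf3, Adm and Has2 of other lists also passed only outside control. The median member lay at 1.85, 1.99 and 1.96 in tumor libraries 1, 2 and 3 on the log2 scale relative to control. Mcm5, a subunit of the helicase that opens DNA for copying, went from 7.71, 6.73 and 7.08 to 41.8, 45.4 and 49.1 CPM (2.66 ± 0.19, adjusted p = 5.0e-06). Tyms, which makes thymidylate, went from 2.64, 2.11 and 2.62 to 14.8, 16.5 and 14.6 CPM (2.64 ± 0.21, adjusted p = 8.0e-06). For both, the 3 tumor libraries were close to each other and well above control. Tk1, Uhrf1, Cdc6, Mcm10, Rrm2, Mcm3 and Mcm2 had log2 folds of 4.82 ± 0.53, 4.41 ± 0.38, 3.63 ± 0.39, 3.30 ± 0.40, 3.27 ± 0.52, 3.11 ± 0.34 and 3.02 ± 0.25. The smallest increases were those of Dut, which breaks down dUTP, at 0.50 ± 0.12, and of the flap endonuclease Fen1 at 0.62 ± 0.13.

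Mitosis genes were higher in 37 of 38, with a median log2 fold of 4.61. Among them 10 passed the filter only outside control, and of the other 28, 27 were higher (median 3.8). Their medians were 4.0, 3.9 and 3.8 in the tumor libraries. Cdk1, the kinase that drives entry into mitosis, was at 1.15, 0.293 and 0.702 CPM in control and 45.6, 38.9 and 35.3 CPM in tumor (5.82 ± 0.46, adjusted p = 8.1e-06). Its partner Ccnb1, cyclin B1, was at 0.474, 0.702 and 0.447 and 37, 30.9 and 25.7 CPM (5.82 ± 0.53). Control libraries held a few counts of each, and the tumor libraries were alike. Mki67, a protein of dividing cells, went from 8.12, 4.8 and 6.57 to 215, 233 and 241 CPM and Top2a, which untangles DNA before division, from 9.27, 4.74 and 5.68 to 316, 278 and 237 CPM (5.15 ± 0.41 and 5.41 ± 0.49). The kinetochore genes Casc5, Ndc80 and Nuf2 rose by 4.71 ± 0.45, 5.63 ± 0.54 and 4.97 ± 0.43, and the spindle genes Kif2c, Prc1 and Tpx2 by 5.52 ± 0.46, 5.26 ± 0.41 and 3.70 ± 0.37. Of the genes named, Cdk1, Ccnb1, Ndc80, Nuf2 and Kif2c are among the 10 that passed the filter only outside control. Casc5 differed little among the tumor libraries, at 44.9, 45.5 and 45.8 CPM. Anln, an actin-binding protein of dividing cells that myelinating cells also express, was the member that did not pass, at 49.5, 53 and 44.4 CPM in control and 45.5, 61.6 and 64.8 CPM in tumor.

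Genes of the G1 phase and of the p53 pathway were mixed: 19 of 34 rose, 0 fell and the median was 0.91, or 14 of 29 and 0.53 among those that passed the filter in control. Ccnd1, cyclin D1, went from 63.6, 49.5 and 43.2 to 1244, 1021 and 918 CPM (4.35 ± 0.21, adjusted p = 6.0e-07), and Cdk4, its kinase, from 29.5, 25.8 and 27.6 to 136, 113 and 94.4 CPM (2.05 ± 0.18). Neither overlapped between the groups. The inhibitors of that kinase were also higher: Cdkn2a (chr4:89274473-89294619, GRCm38) went from 0.338, 0.117 and 0 to 31.6, 12.1 and 13.1 CPM, its neighbour Cdkn2b (chr4:89306289-89311032) from 1.62, 0.878 and 0.574 to 93.9, 18.5 and 13.6 CPM, and Cdkn2c from 2.23, 0.995 and 2.55 to 32.3, 21.4 and 25.7 CPM. Their log2 folds were 6.94 ± 0.63, 5.37 ± 0.85 and 3.79 ± 0.37. Tumor library 1 held the most of all 3, with the largest gap for Cdkn2b, and each was above every control in every tumor library. Cdkn2a passed the filter on low counts only outside control. Counts per symbol do not separate the transcripts of Cdkn2a that encode p16 and p19Arf. Trp53, the gene of p53, was at 11.5, 12.1 and 8.55 CPM in control and 14.2, 11.6 and 12.1 CPM in tumor and did not pass (0.24 ± 0.17, adjusted p = 0.25). Of its targets, Cdkn1a rose by 1.42 ± 0.46 and Phlda3 by 1.16 ± 0.19, whereas Ccng1, Zmat3 and Sesn1 lay at -0.34 ± 0.16, -0.29 ± 0.14 and -0.18 ± 0.12 and did not pass. Rb1, the gene of the retinoblastoma protein, was at 0.10 ± 0.13 and did not pass. Cdkn1a did not pass without control library 1, 2 or 3 or without tumor library 1 (adjusted p from 0.051 to 0.12), and its fold without tumor library 1 was 0.63. The folds of Cdkn2a and Cdkn2b were 6.35 and 3.98 without tumor library 1, and that of Cdkn2a was 8.14 without control library 1.

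Promoters of these lists were read for motifs bound by known regulators, in a window of 300 bases from 250 before to 50 after each start, on both strands (RefSeq, GRCm38.p6). Of the 15511 symbols tested, 11271 had a promoter there, and matches are described with no test. The cell cycle homology region (CHR), spelled TTTGAA, is bound by a complex that acts on genes of mitosis. It was present in 23 of the 31 mitosis genes with a promoter (74.2%) and in 1600 of the 11271 symbols tested with a promoter (14.2%). The E2F motif, searched as TTTGGCGC, TTTCCCGC, TTTGCCGC or TTTCGCGC, was present in 11 of the 25 DNA replication genes with a promoter (44.0%) and in 498 of the 11271 symbols tested with a promoter (4.42%). Each motif was no more frequent in the other list than in all symbols: the CHR was found in 3 of the 25 DNA replication genes with a promoter (12%) and the E2F motif in 1 of the 31 mitosis genes with a promoter (3.23%). Of all 2811 symbols higher in tumor with a promoter, 16.1% held the CHR and 6.37% the E2F motif. Whether the motifs bear on the rise was not tested. CCAAT was common everywhere, in 42.5% of all and in 22 of the 31 mitosis genes with a promoter (71.0%). The E2F forms overlap each other where both strands match. Shown for each list are the members with a match and the lowest adjusted p: Cdc20, which activates the anaphase-promoting complex, Racgap1, which acts in cytokinesis, and Mcm5. Capitals mark the CHR in Cdc20 (chr4:118437294-118437593, minus strand) and Racgap1 (chr15:99651607-99651906, minus strand) and 2 overlapping E2F matches in Mcm5 (chr8:75109259-75109558, plus strand).
Cdc20: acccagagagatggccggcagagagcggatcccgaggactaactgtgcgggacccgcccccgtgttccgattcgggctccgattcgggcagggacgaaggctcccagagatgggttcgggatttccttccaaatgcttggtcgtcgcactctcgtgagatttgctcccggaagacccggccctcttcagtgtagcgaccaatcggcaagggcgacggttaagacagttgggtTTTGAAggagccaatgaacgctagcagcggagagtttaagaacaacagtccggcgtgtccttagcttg
Racgap1: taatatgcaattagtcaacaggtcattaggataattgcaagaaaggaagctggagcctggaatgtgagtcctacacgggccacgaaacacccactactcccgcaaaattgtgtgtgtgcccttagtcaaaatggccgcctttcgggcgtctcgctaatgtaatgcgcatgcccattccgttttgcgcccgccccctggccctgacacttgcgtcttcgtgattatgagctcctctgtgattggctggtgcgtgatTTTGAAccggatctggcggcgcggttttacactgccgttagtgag
Mcm5: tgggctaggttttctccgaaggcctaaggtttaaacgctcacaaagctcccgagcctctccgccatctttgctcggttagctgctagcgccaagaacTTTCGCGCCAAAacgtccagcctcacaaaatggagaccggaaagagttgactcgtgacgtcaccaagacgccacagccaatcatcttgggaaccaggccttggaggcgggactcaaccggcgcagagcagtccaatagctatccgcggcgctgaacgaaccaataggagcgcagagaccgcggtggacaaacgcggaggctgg
Cdc20 was at 1.22, 0.761 and 1.15 CPM in control and 30.2, 23.8 and 22.5 CPM in tumor (4.61 ± 0.32), and its CHR began 18 bases before the start. Racgap1 was at 17.3, 14.2 and 14.7 and 117, 90.7 and 91.8 CPM (2.70 ± 0.20), and its CHR lay just inside the transcript. For both genes, tumor library 1 was the highest and the groups did not overlap.

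**Figure D3:**
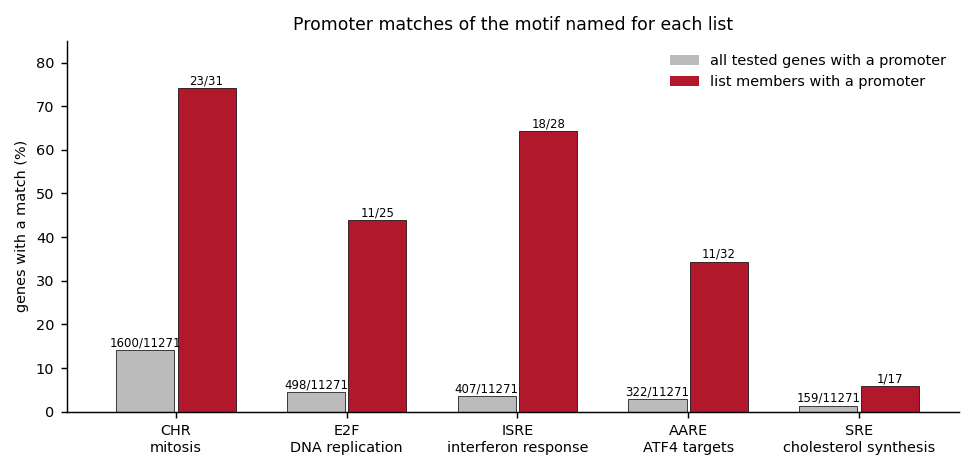
Bars give the percentage of genes with at least 1 match of the motif named under each pair in the 300-base promoter window, for all tested genes with a promoter (grey) and for the members of the list named (red); the counts stand above each bar. The red bars reach 74.2%, 44.0%, 64.3% and 34.4% for mitosis, DNA replication, interferon response and ATF4 targets, and 1 of 17 cholesterol synthesis genes held the sterol motif.

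Genes of protein synthesis were higher by smaller amounts. Of the cytosolic ribosomal protein genes, 51 of 76 rose and 0 fell, with a median log2 fold of 0.56 and library medians of 0.81, 0.54 and 0.27. The number that rose was 35 without control library 3, 36 without control library 2 and 41 without tumor library 1. Control library 1 was at 0.19, close to tumor library 3. Rpl13, of the large subunit, went from 74.1, 51.5 and 54.2 to 168, 127 and 99.2 CPM (1.14 ± 0.20, adjusted p = 0.0013) and Rps4x, of the small subunit, from 119.9, 103 and 97.6 to 253, 209 and 159.7 CPM (0.96 ± 0.18, adjusted p = 0.0018). Both groups of libraries were apart, with tumor library 1 highest. Ribosomal protein genes have near-identical pseudogenes, so these counts are uncertain to the extent that the counting split reads between them. Nucleolar genes that assemble ribosomes rose in 14 of 30 (median 0.52) and fell in 1, or rose in 9 without control library 3. Ddx21, an RNA helicase of the nucleolus, went from 39.4, 41.6 and 39.3 to 169.7, 75.5 and 82.4 CPM, and Npm1, nucleophosmin, from 127, 139 and 136 to 355, 224 and 213 CPM (1.45 ± 0.27 and 0.98 ± 0.18). Both were highest in tumor library 1, as were 29 of the 30 genes among the tumor libraries.

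Targets of ATF4, the factor of the amino acid and integrated stress response, rose in 31 of 40 members and fell in 1, with a median of 1.16 (28 higher without tumor library 1). Without control library 2 and without control library 3, 26 and 27 rose. Genes of serine and one-carbon metabolism were among them: Aldh1l2 went from 8.46, 5.38 and 4.6 to 152, 109 and 88.9 CPM, Mthfd2 from 5.28, 5.97 and 5.68 to 42.5, 20.02 and 22 CPM and Psat1 from 102, 95.6 and 93.9 to 328, 235 and 208 CPM. Their log2 folds were 4.25 ± 0.32, 2.32 ± 0.29 and 1.40 ± 0.16, and in each the groups did not overlap. The amino acid transporter Slc7a5 rose from 47.2, 42.5 and 41.4 to 210.3, 124 and 139 CPM (1.85 ± 0.21), and Atf4 itself from 95, 80.3 and 86.2 to 239, 157 and 155 CPM (1.08 ± 0.16). Slc7a11, the cystine and glutamate exchanger known from glioma, was the member that fell, from 110.1, 121 and 144 to 109.7, 93.7 and 95.2 CPM (-0.33 ± 0.12, adjusted p = 0.042), with tumor library 1 just below control library 1. Slc7a11 did not pass without control library 2 or 3, without tumor library 2 or 3, scaled by totals, without the filter on low counts or with the 6 libraries fitted alone (adjusted p from 0.061 to 0.19). Ddit3 at 0.17 ± 0.14, Vldlr at -0.03 ± 0.10 and Wars at -0.05 ± 0.10 did not pass. The amino acid response element, searched as TGATGNAA, was found in 11 of the 32 ATF4 targets with a promoter (34.4%) and in 322 of the 11271 symbols tested with a promoter (2.86%). Of all symbols higher in tumor with a promoter, 2.85% held the element. Atf3, a stress-induced factor, had the lowest adjusted p of the members that held it and is shown with its match in capitals, on the reverse strand (chr1:191183284-191183583, minus strand).
Atf3: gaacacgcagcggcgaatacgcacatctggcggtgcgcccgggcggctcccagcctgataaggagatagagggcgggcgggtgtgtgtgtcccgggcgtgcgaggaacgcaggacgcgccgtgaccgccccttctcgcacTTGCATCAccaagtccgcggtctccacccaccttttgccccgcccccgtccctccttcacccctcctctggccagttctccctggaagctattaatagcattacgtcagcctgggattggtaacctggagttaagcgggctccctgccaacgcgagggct
Its level was 0.676, 0.761 and 0.319 CPM in control and 9.17, 4.06 and 3.49 CPM in tumor (3.24 ± 0.48, adjusted p = 0.00052), highest in tumor library 1 and without overlap.

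Cholesterol synthesis genes rose in 16 of 25 (median 0.62) and fell in 1, or rose in 12 without control library 2. Sqle, squalene epoxidase, went from 81.7, 78.7 and 77.5 to 267, 179.7 and 177 CPM and Cyp51, a demethylase of the pathway, from 91.7, 89.95 and 92.7 to 189, 168 and 150.2 CPM (1.39 ± 0.15 and 0.89 ± 0.11). All tumor libraries lay above control for both. Hmgcs1 and Fdft1 at 0.33 ± 0.14 and 0.05 ± 0.11 did not pass, and Tm7sf2, a sterol reductase, fell by 0.44 ± 0.16. Tm7sf2 did not pass without control library 1, 2 or 3, without tumor library 1 or 3, scaled by totals, without the filter on low counts or with the 6 libraries fitted alone (adjusted p from 0.061 to 0.12). The sterol motif TCACNCCAC was found in 1 of 17 promoters of the list and in 159 of the 11271 symbols tested with a promoter (1.41%). None of the 12 higher members with a promoter held it. CCAAT was found in all 17.

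Hypoxia and glycolysis genes went the other way, with 17 of 33 lower, 6 higher and a median of -0.40. The number lower was 12 without control library 1 and 13 without control library 2. The enzymes of glycolysis made up most of the lower members. Gapdh went from 311, 301 and 247 to 160.4, 195 and 203 CPM, and Eno2, the neuronal enolase, from 817, 743 and 713 to 276, 490.3 and 416 CPM (-0.62 ± 0.12 and -0.94 ± 0.18). Every tumor library was below control, tumor library 1 most. Pdk1 and Bnip3, both induced by hypoxia, fell by 0.80 ± 0.12 and 0.79 ± 0.12. Adm, the peptide adrenomedullin, rose from 1.08, 0.117 and 0.893 to 20.3, 14.4 and 7.42 CPM (4.36 ± 0.66), and Hk2, P4ha1 and Vegfa rose by 1.41 ± 0.39, 0.70 ± 0.11 and 0.88 ± 0.23. Vegfa, the vessel growth factor, was at 61.6, 65.3 and 55.5 CPM in control and 161, 78.6 and 97.3 CPM in tumor. Without tumor library 1 the fold of Hk2 was 0.67. Ldha and Slc2a1 at 0.13 ± 0.16 and 0.24 ± 0.11 did not pass. Nuclear genes of the respiratory chain were mostly within the spread: 49 were tested, 1 rose, 4 fell, and the median was -0.09, or 0.01 when libraries were scaled by their totals. With upper-quartile scaling 10 fell. None fell with totals, with the replicate block or without control library 1, 1 fell with the 6 libraries alone or without control library 2, and 2 fell without tumor library 1 or 3 or without the filter on low counts.

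In each of the 3 lists of matrix genes more members rose than fell, and the share lower was 21.9% for proteoglycans, 17.6% for collagens and laminins and 13.8% for proteases, against 23.6% of all symbols. Among proteoglycans, tenascins and their partners, 18 of 32 were higher and 7 lower (median 0.8), or 14 were higher without control library 2 or without tumor library 1. The count of lower members was 3 without control library 1 or without tumor library 2 and 4 without control library 3 or without tumor library 1. Vcan, versican, went from 58.2, 46.1 and 52.3 to 973, 513 and 740.4 CPM (3.83 ± 0.24, adjusted p = 2.1e-06) and Has2, a hyaluronan synthase, from 1.15, 0.41 and 0.319 to 44.7, 10.4 and 12 CPM (5.17 ± 0.66). Tnc, tenascin C, went from 7.78, 5.68 and 4.6 to 90.1, 86 and 28.2 CPM (3.51 ± 0.55), with tumor library 3 the lowest of the tumor libraries. Acan, the aggrecan of perineuronal nets, rose from 9.67, 6.26 and 7.02 to 159.8, 42.9 and 63.1 CPM (3.54 ± 0.48), whereas Hapln4, a link protein of the same nets, fell from 65.5, 72.5 and 65.9 to 33.4, 43.8 and 34.5 CPM (-0.87 ± 0.13). Acan was highest in tumor library 1, and neither gene overlapped between the groups. Spock1, a proteoglycan of neurons, fell by 1.04 ± 0.21, and Fn1 and Hapln1 at 0.38 ± 0.35 and -0.11 ± 0.36 did not pass. The folds of Has2 and Acan were 4.17 and 2.8 without tumor library 1, and that of Has2 was 5.92 without control library 1.

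Of the collagens and laminins, 18 of 34 rose and 6 fell (median 0.89), and 3 fell without control library 1, without control library 2 or when libraries were scaled by their totals. Col11a1, a fibrillar collagen, went from 28.8, 24.9 and 25.3 to 559, 271 and 281 CPM and Lama4, a laminin chain of vessels, from 23.5, 18.9 and 23.9 to 115, 97.7 and 86.5 CPM (3.82 ± 0.28 and 2.17 ± 0.16). Col4a1, of basement membranes, went from 71.3, 59.2 and 58.8 to 227, 168 and 96.2 CPM (1.38 ± 0.40). The 3 genes were apart between groups, and tumor library 1 was the highest. Col4a1 did not pass without control library 2 or 3 (adjusted p from 0.054 to 0.058). Col6a1, Col6a2 and Lamb2 fell by 0.78 ± 0.14, 0.57 ± 0.15 and 0.53 ± 0.12, and Col1a1 and Col1a2 did not pass. Among proteases and inhibitors, 14 of 29 rose and 4 fell, or 11 rose and 2 fell without control library 1, 2 or 3. Adam12, a membrane-bound metalloprotease, went from 13.3, 6.79 and 6.19 to 270.4, 193 and 191 CPM (4.64 ± 0.29) and Mmp14, which activates other metalloproteases, from 8.66, 7.08 and 6.57 to 93.1, 30.1 and 48.7 CPM (2.95 ± 0.36). Adamts1, a protease of proteoglycans, went from 25, 17.1 and 15.5 to 452, 94.8 and 80.8 CPM (3.45 ± 0.59), so that tumor library 1 held several times the other tumor libraries, and the fold without it was 2.2. Mmp9 at 0.98 ± 0.87, Plau at 0.13 ± 0.35 and Timp2 at -0.13 ± 0.13 did not pass.

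Neuronal genes were lower across all neuron classes. Of the markers of excitatory neurons, 23 of 26 fell and 1 rose, with a median of -0.88 (-0.7 without tumor library 1, with 22 lower). The medians by tumor library were -1.31, -0.75 and -0.67. Grin2b, an NMDA receptor subunit, went from 492, 489 and 522 to 98.2, 232 and 240.1 CPM (-1.40 ± 0.29, adjusted p = 0.0030). All tumor libraries were below control, with tumor library 1 lowest. Nrgn, a postsynaptic calmodulin-binding protein, fell by 0.99 ± 0.21, Tbr1 by 0.95 ± 0.25 and Neurod2 by 0.77 ± 0.15. Kcnip3, a calcium sensor, was the exception: it rose from 132, 114 and 105 to 439, 437 and 411 CPM (1.87 ± 0.12, adjusted p = 2.8e-06), with the 3 tumor libraries alike. Genes of single cortical layers fell in 21 of 30 and rose in 3 (median -0.84), or rose in 5 without tumor library 1. The number that fell was 16 without control library 1, 2 or 3. Upper and deep layers were both among the lower genes: Otof went from 41.3, 44.1 and 38.2 to 4.83, 9.47 and 21.3 CPM, Rorb of layer 4 from 162, 173 and 213 to 59.5, 109 and 115 CPM, and Fezf2 of layer 5 from 19.2, 15.9 and 13 to 6.33, 5.84 and 9.67 CPM. Their log2 folds were -1.81 ± 0.51, -0.95 ± 0.21 and -1.15 ± 0.24, without overlap, and that of Otof was -2.53 without tumor library 3. Etv1, Bcl6 and Pou3f2, transcription factors, rose by 0.75 ± 0.16, 0.79 ± 0.15 and 0.56 ± 0.14, and Cux1 at -0.25 ± 0.11 did not pass.

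Markers of inhibitory neurons fell in 18 of 29 and rose in 2 (median -0.9), or fell in 12 without control library 2. Lhx6, a factor of interneurons, went from 18.5, 20.5 and 15.5 to 6.21, 9.08 and 9.11 CPM, Pvalb, the calcium buffer of fast-spiking cells, from 28.7, 23 and 25.5 to 5.68, 13.1 and 13.2 CPM, and Vip, a peptide of another class, from 40.9, 35.1 and 50.1 to 13.5, 22.2 and 21.8 CPM. All 3 were lower in every tumor library, by 1.16 ± 0.19, 1.28 ± 0.28 and 1.14 ± 0.23 on the log2 scale. Slc32a1, which loads GABA into vesicles, fell by 1.06 ± 0.25, and Dlx1, a homeobox factor, by 1.34 ± 0.23. Erbb4 at 0.03 ± 0.09 and the peptide Npy at -0.24 ± 0.30 did not pass. The members that rose, Sox6 and Kit, are also expressed by precursors of the oligodendrocyte lineage. Kit did not pass without control library 1 or 2 or without tumor library 3 (adjusted p from 0.051 to 0.062). Markers of striatal projection neurons were present in every library, with summed levels of 3097, 3494 and 3879 CPM in control and 1006, 2226 and 2544 CPM in tumor. Of 18 members, 13 fell, and 4 fell without control library 2 or without control library 3. Adora2a, the adenosine receptor of that region, went from 63.6, 67.5 and 74.1 to 10.1, 36.2 and 45.9 CPM (-1.16 ± 0.41), lowest by far in tumor library 1. Adora2a did not pass without control library 1, 2 or 3, without tumor library 2, by DESeq2 or with the 6 libraries fitted alone (adjusted p from 0.053 to 0.099). How much striatum each sample held was not measured, and its part in the neuronal results was not tested.

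**Figure D4:**
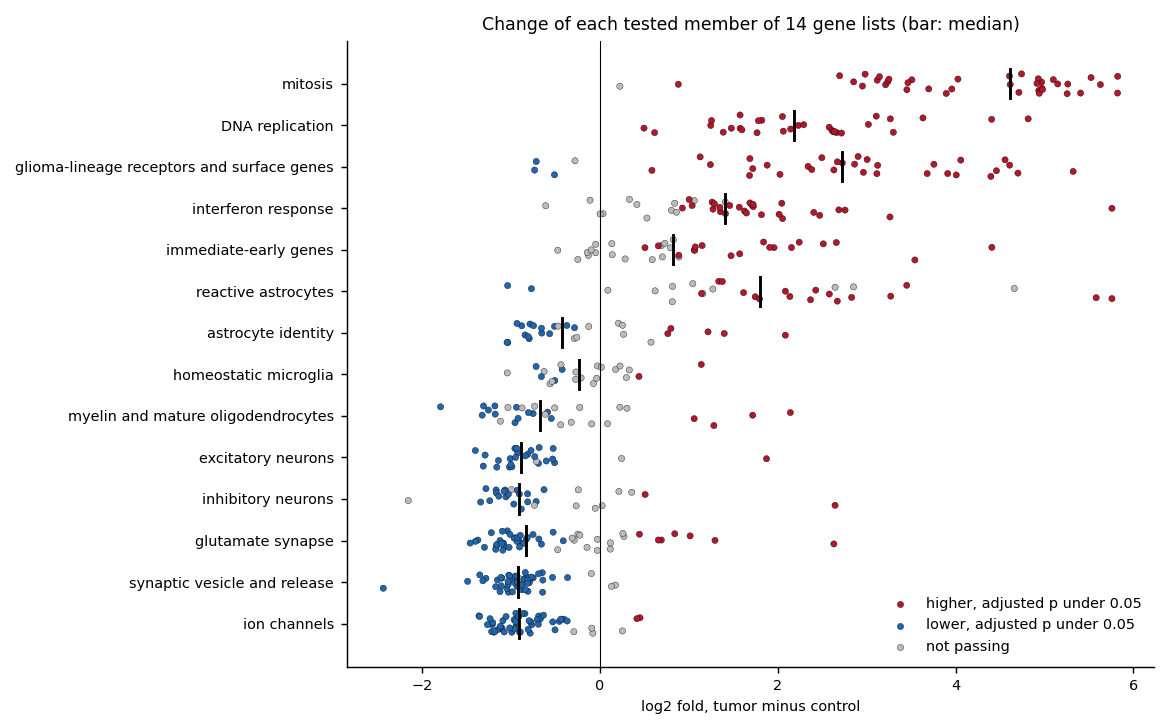
Each point is a tested member of the list named on the left, placed at its log2 fold of tumor minus control; red and blue points passed at an adjusted p under 0.05, grey points did not, and the bar is the median. Mitosis centres on 4.61 and the synaptic vesicle list on -0.93, and the neuronal lists each hold a few members to the right of 0.

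Synaptic vesicle and release genes were the most uniform of the lower lists: 44 of 47 fell, 0 rose and the median was -0.93. Without tumor library 1 the same number fell, with a median of -0.72. Snap25, of the fusion complex, went from 2667, 2626 and 2892 to 927, 1644 and 1659 CPM (-0.95 ± 0.21, adjusted p = 0.0040), and Bsn, bassoon of the active zone, from 738, 684 and 657 to 144, 295 and 377 CPM (-1.35 ± 0.29). The tumor libraries lay below all controls, with tumor library 1 lowest. Syn1, Syp, Syt1 and Unc13a fell by 1.03 ± 0.24, 0.97 ± 0.18, 1.04 ± 0.22 and 1.31 ± 0.28. Baiap3, a Munc13-type protein, fell most, from 37.9, 61.4 and 29 to 6.33, 9.17 and 8.26 CPM (-2.43 ± 0.29, adjusted p = 0.00011), and here the tumor libraries were close together. The 3 that did not pass were Sv2c, Unc13c and Syt11, at -0.09 ± 0.21, 0.13 ± 0.17 and 0.18 ± 0.11.

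Glutamate synapse genes fell in 32 of 51 and rose in 7 (median -0.83). Receptor subunits differed from each other. Of the AMPA receptor subunits, Gria1 fell from 576, 622 and 563 to 216, 306 and 311 CPM (-1.08 ± 0.15), Gria2 and Gria3 did not pass (-0.25 ± 0.11 and -0.22 ± 0.14), and Gria4 rose from 187, 184 and 218 to 541, 431 and 473 CPM (1.30 ± 0.12, adjusted p = 2.4e-05). Gria1 and Gria4 each had groups that did not overlap, in opposite directions. Of the NMDA receptor subunits, Grin1, Grin2a, Grin2c and Grin2d fell by 0.91 ± 0.17, 1.37 ± 0.25, 0.75 ± 0.19 and 1.16 ± 0.23, while Grin3a rose by 1.02 ± 0.12. Among auxiliary subunits of AMPA receptors, Cacng8 fell by 0.83 ± 0.17 and Cacng4 rose from 12.7, 13.9 and 12.4 to 86.9, 73.1 and 82.2 CPM (2.63 ± 0.22). Metabotropic receptors fell in Grm2, Grm8, Grm7, Grm3 and Grm4, by 1.46 ± 0.33, 1.30 ± 0.26, 1.10 ± 0.21, 1.12 ± 0.32 and 1.04 ± 0.21, and Grm5 did not pass (-0.14 ± 0.11). The scaffolds Shank1, Dlgap3 and Dlg4 fell by 1.16 ± 0.23, 1.09 ± 0.19 and 0.93 ± 0.17. Of the adhesion proteins, Nlgn3 went from 146, 146 and 126 to 221, 221 and 235 CPM (0.69 ± 0.10) and Nlgn2 rose by 0.45 ± 0.11, whereas Nlgn1 and Nrxn2 at -0.03 ± 0.11 and 0.12 ± 0.12 did not pass and Nrxn3 fell by 0.89 ± 0.17. Precursors of the oligodendrocyte lineage are known to express Gria4, Cacng4, Grin3a and Nlgn3, and what share of these counts came from which cells was not measured.

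Of the GABA receptor and chloride transport genes, 17 of 24 fell and 1 rose (median -0.84). Slc12a5, the neuronal exporter KCC2 that keeps chloride low (chr2:164960846-164999731, GRCm38), went from 661, 649.9 and 594 to 166, 291 and 345 CPM (-1.25 ± 0.25, adjusted p = 0.0026). Slc12a2, the importer NKCC1, went from 144, 162 and 165 to 292, 217 and 269 CPM (0.73 ± 0.13, adjusted p = 0.0018). Both were without overlap, the exporter lower and the importer higher in tumor. The fall of Slc12a5 compares with a median of -0.93 for the vesicle genes and -0.92 for ion channels, and the difference was not tested. Gabrd, an extrasynaptic subunit, went from 78.1, 67.2 and 72.4 to 12.7, 29.6 and 37.8 CPM (-1.45 ± 0.36), and Gabra5, Gabrb1 and Gabbr2 fell by 1.05 ± 0.14, 1.11 ± 0.17 and 0.94 ± 0.16. The scaffold Gphn, the kinases Wnk1 and Stk39 and the subunit Gabrg1 were at -0.08 ± 0.11, -0.09 ± 0.14, -0.20 ± 0.10 and -0.18 ± 0.14 and did not pass.

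Ion channel genes fell in 48 of 54, with a median of -0.92, or in 40 without control library 2. Kcnc1, a potassium channel of fast-spiking neurons, went from 158, 160.0 and 147 to 45.7, 78.6 and 92.8 CPM and Scn8a, a sodium channel of the axon, from 509, 499 and 511 to 139, 250.5 and 293 CPM (-1.10 ± 0.21 and -1.15 ± 0.24). Tumor library 1 was lowest for both and no library overlapped. Kcnd3 and Kcnk2 rose, by 0.45 ± 0.11 and 0.42 ± 0.11, and Kcnd2, Kcnk1, Scn3a and Cacna1g at 0.25 ± 0.12, -0.08 ± 0.14, -0.09 ± 0.16 and -0.29 ± 0.16 did not pass. Receptors for monoamines, acetylcholine and peptides fell in 31 of 42 (median -0.89). The number that fell was 23 without control library 1, 25 without control library 2 and 24 without control library 3. Htr1a, a serotonin receptor, went from 27.1, 25 and 23 to 4.42, 9.77 and 11 CPM (-1.58 ± 0.29), while Sstr1 and Chrna4 rose by 0.74 ± 0.14 and 0.70 ± 0.14. Neurofilament and axon cytoskeleton genes fell in 22 of 27 (median -0.82). Nefl, the light neurofilament, went from 384, 327 and 329 to 73.8, 156 and 189 CPM (-1.31 ± 0.30), Stmn2 fell by 1.12 ± 0.21, and Gap43, a growth cone protein, did not pass (-0.19 ± 0.12).

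Immediate-early genes, which neurons and other cells switch on within minutes of stimulation, rose in 18 of 35 and fell in 0 (median 0.83). Here tumor library 1 was the low one: the medians were 0.16, 1.26 and 0.69, against 0.25, -0.02 and -0.29 in control, and 23 rose without it. Npas4 was at 41.7, 34.2 and 19.1 CPM in control and 2.44, 141 and 32.4 CPM in tumor, and did not pass (0.89 ± 0.93, adjusted p = 0.44). Arc, an effector at synapses, was at 178, 94.6 and 69.4 and 48, 368 and 136 CPM and Egr4 at 14.2, 13.9 and 10.02 and 7.1, 31.9 and 27.3 CPM, and neither passed. In all 3 genes tumor library 1 was below every control and tumor library 2 above every control. Fosb, at 10.4, 9.07 and 6.57 CPM in control and 10.4, 55.1 and 58.1 CPM in tumor, passed with a log2 fold of 2.24 ± 0.52 (adjusted p = 0.0052), yet tumor library 1 was level with control. Other members were higher in all 3 tumor libraries. Fos went from 38.6, 23.4 and 11.7 to 128, 203 and 89.4 CPM (2.51 ± 0.40), Egr1 from 101, 91.7 and 73.7 to 200.2, 182 and 175 CPM (1.07 ± 0.17) and Jun from 31.9, 33.1 and 28.5 to 116, 75.4 and 68.5 CPM (1.48 ± 0.19). Control library 1 was the highest control for Fos and Egr1. Trib1, Maff, Egr2, Nr4a1 and Ptgs2 rose by 3.54 ± 0.33, 4.41 ± 0.62, 2.66 ± 0.36, 1.84 ± 0.24 and 1.91 ± 0.42. The fold of Maff was 3.72 without tumor library 1 and 5.63 without control library 1, and that of Ptgs2 was 1.31 without tumor library 2.

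**Figure D5:**
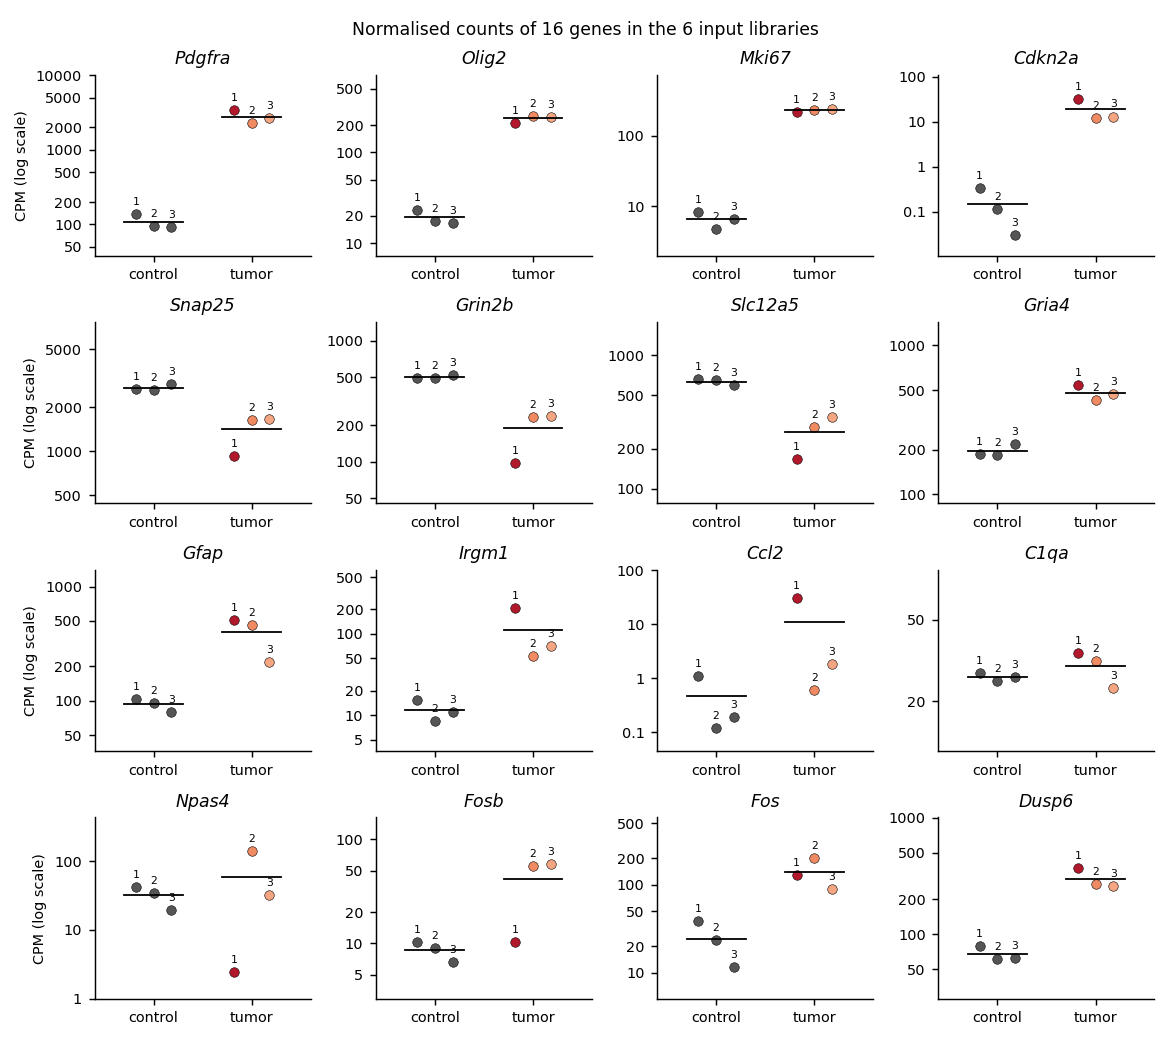
Normalised counts (CPM, log scale) of 16 genes in control libraries (grey) and tumor libraries (red shades), numbered 1 to 3, with the group mean as a bar; the control library of Cdkn2a without a count is drawn at 0.03. Olig2 and Mki67 are alike in the 3 tumor libraries, whereas Pdgfra is at 3423, 2281 and 2694 CPM in them. Snap25, Grin2b and Slc12a5 are lowest in tumor library 1, Irgm1 and Ccl2 are highest there, and Npas4 stands at 2.44 there.

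Of the identity genes of astrocytes 15 of 28 fell and 5 rose (median -0.42), with close medians of -0.46, -0.42 and -0.36 in the tumor libraries. Slc1a2, the main glutamate transporter, went from 5959.8, 6394 and 7117 to 2766, 4035 and 4432 CPM (-0.79 ± 0.20, adjusted p = 0.0073) and Gjb6, a gap junction protein, from 43.5, 47.3 and 48.1 to 22.6, 20.6 and 24.7 CPM (-1.04 ± 0.13). Neither overlapped between the groups. Aldh1l1, a folate enzyme, fell by 0.84 ± 0.15, Mlc1 by 0.75 ± 0.12 and Slc39a12 by 1.04 ± 0.17. S100b, a calcium-binding protein, rose from 106, 103 and 108 to 352, 226 and 259 CPM (1.40 ± 0.18), and F3, Atp1b2 and the intermediate filament Gfap rose by 1.22 ± 0.17, 0.76 ± 0.20 and 2.09 ± 0.38. Sox9 and Aldoc at 0.21 ± 0.14 and -0.29 ± 0.14 did not pass.

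Genes of reactive astrocytes rose in 17 of 29 and fell in 2, with a median of 1.8 that was 0.79 without tumor library 1, where 13 rose. Without control library 2, 11 rose. Of the 22 members that passed the filter in control, 14 rose (median 1.5). Tumor library 1 was the highest tumor library for 28 of the 29. Gfap was at 104, 95.9 and 79.6 CPM in control and 510.1, 462 and 217 CPM in tumor, so tumor library 3 was the lowest of the tumor libraries and still above control. C4b, complement C4, went from 23.2, 19.7 and 18.6 to 211, 140.0 and 85.6 CPM (2.83 ± 0.34, adjusted p = 0.00012) and Stat3, the factor of this response, from 65.2, 56 and 55.7 to 328, 166 and 119.8 CPM (1.80 ± 0.34, adjusted p = 0.0019). Socs3, which STAT3 induces, went from 3.52, 2.34 and 2.81 to 61.2, 10.3 and 11.8 CPM and Cd44, a hyaluronan receptor, from 8.12, 7.43 and 6.64 to 84.1, 26.8 and 8.1 CPM (3.27 ± 0.67 and 2.43 ± 0.73). Tumor library 1 was far above the others for both: without it the folds were 1.94 and 1.25, and tumor library 3 overlapped control for Cd44. Cd44 did not pass without control library 1, 2 or 3 or without tumor library 1 (adjusted p from 0.056 to 0.082). Lcn2, at 0.203, 0.761 and 2.04 CPM in control and 21.1, 0.432 and 0.112 CPM in tumor, was high in that library alone and did not pass (adjusted p = 0.10). Serping1, a complement inhibitor, and Amigo2 fell by 0.77 ± 0.24 and 1.04 ± 0.18. Serping1 did not pass without control library 1 or without tumor library 2 (adjusted p from 0.069 to 0.10).

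Interferon response genes rose in 27 of 39 and fell in 0 (median 1.41), or rose in 25 of the 35 that passed the filter in control (median 1.36). Tumor library 1 was the highest of the tumor libraries for 37, and without it 23 rose, with a median of 0.89. Without control library 2, 22 rose. Ddx58, the RNA sensor RIG-I, went from 8.93, 8.49 and 9.0 to 50.6, 27.4 and 31 CPM (2.05 ± 0.22, adjusted p = 6.5e-05). Irgm1, an immunity-related GTPase, went from 15.4, 8.54 and 10.9 to 209, 53.9 and 70.2 CPM (3.26 ± 0.47, adjusted p = 0.00040), and Ifit2 from 16.4, 18.9 and 15.9 to 70.3, 57.9 and 52.3 CPM (1.82 ± 0.21). The groups were apart for all 3, with tumor library 1 highest, and the fold of Irgm1 was 2.42 without it. Irf1, a factor of the response, rose by 1.65 ± 0.27, whereas Stat2, Gbp2, Oas2 and Isg15 at -0.11 ± 0.18, 0.00 ± 0.24, -0.61 ± 0.31 and 1.41 ± 0.80 did not pass. The interferon-stimulated response element, searched as GAAA, any 2 bases and GAAA, was found in 18 of the 28 interferon response genes with a promoter (64.3%) and in 407 of the 11271 symbols tested with a promoter (3.61%). It was in 11 of the 20 higher members (55.0%) and in 4.38% of all symbols higher in tumor with a promoter. Shown are the members with a match and the lowest adjusted p, with the matches in capitals: Ddx58 (chr4:40239776-40240075, minus strand), matched on the reverse strand, and Irgm1 (chr11:48871371-48871670, minus strand), where 2 matches overlap.
Ddx58: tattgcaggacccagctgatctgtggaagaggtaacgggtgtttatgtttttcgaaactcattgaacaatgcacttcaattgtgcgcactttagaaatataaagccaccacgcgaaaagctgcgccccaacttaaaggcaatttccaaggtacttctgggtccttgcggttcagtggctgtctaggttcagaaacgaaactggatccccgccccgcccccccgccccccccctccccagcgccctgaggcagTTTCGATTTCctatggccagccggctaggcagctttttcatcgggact
Irgm1: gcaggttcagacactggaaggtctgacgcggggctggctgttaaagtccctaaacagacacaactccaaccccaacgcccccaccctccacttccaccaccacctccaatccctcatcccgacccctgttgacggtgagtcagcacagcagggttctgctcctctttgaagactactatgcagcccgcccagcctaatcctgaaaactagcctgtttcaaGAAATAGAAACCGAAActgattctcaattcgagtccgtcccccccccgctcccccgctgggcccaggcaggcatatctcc
Antigen presentation genes rose in 10 of 22 (median 0.75), but in 6 without tumor library 1, in 6 without control library 3 and in 4 without control library 2. B2m, the light chain of class I molecules, went from 65.2, 52.6 and 66.8 to 183, 108 and 111 CPM (1.13 ± 0.25), and Tap1, the peptide transporter, from 2.5, 2.93 and 3.96 to 16.2, 8.86 and 6.24 CPM (1.74 ± 0.39). Cd74 and Ctss at 0.64 ± 0.48 and 0.33 ± 0.13 did not pass.

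Markers of resting microglia were mostly within the spread: of 22, 4 fell, 2 rose and 16 did not pass (median -0.24, or -0.10 without tumor library 1). The number that fell was 0 without control library 1 and 2 without control library 2, and 1 rose without control library 2 or 3 or without tumor library 1 or 2. Their summed level was 664, 644 and 594 CPM in control and 533, 618 and 584 CPM in tumor, so the groups overlapped. Csf1r, the growth factor receptor of microglia, fell from 107, 106 and 89.99 to 63.2, 83.5 and 79.4 CPM (-0.42 ± 0.13), and P2ry12, Cx3cr1 and Tmem119 at -0.56 ± 0.22, -0.54 ± 0.21 and -0.21 ± 0.29 did not pass. Csf1r did not pass without control library 1 or 2 or without tumor library 1 (adjusted p from 0.056 to 0.078). Genes of reactive microglia and macrophages rose in 12 of 28 and fell in 1, out of 34 listed. Of those tested, 12 had too few counts in control to pass the filter there, and of the other 16, 4 rose (median 0.49). The count of higher members was 5 without tumor library 1 or without control library 2, 6 without control library 3 and 5 among genes with a mean of at least 5 CPM. Itgax, an integrin of activated microglia, went from 0.541, 0.351 and 0.574 to 9.09, 5.75 and 4.61 CPM (3.73 ± 0.45, adjusted p = 0.00013) and was higher in all tumor libraries. Ccl2, a chemokine that draws monocytes, was at 1.08, 0.117 and 0.192 CPM in control and 30.8, 0.605 and 1.8 CPM in tumor (4.61 ± 1.35, adjusted p = 0.017), and Il1b, a cytokine, at 0.947, 0.117 and 0.192 and 14.3, 1.69 and 0.618 CPM (3.76 ± 1.11, adjusted p = 0.018). For both, tumor library 1 was far above the rest and at least 1 other tumor library overlapped control. Itgax, Ccl2 and Il1b are among the 12 with too few counts in control. Ccl2 did not pass without control library 2 or 3 or without tumor library 1 (adjusted p from 0.063 to 0.16), and Il1b did not pass without control library 2 or 3 or without tumor library 1 (adjusted p from 0.067 to 0.11). Without tumor library 1 their folds were 1.37 and 1.52, and without control library 1 6.13 and 5.14. Apoe, Cd68, Mrc1 and Ccr2 at -0.26 ± 0.17, 0.01 ± 0.24, -0.33 ± 0.16 and -0.72 ± 0.66 did not pass. Of 21 markers of lymphocytes and neutrophils in the table only 4 had enough counts to test, and of these Cd4 fell, from 13.7, 16.4 and 16.7 to 3.08, 6.74 and 10.1 CPM.

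Of the genes of myelin and mature oligodendrocytes, 13 of 30 fell and 4 rose (median -0.67). The number that fell was 10 without control library 2 and 17 without tumor library 2. Opalin, of mature oligodendrocytes, went from 12.2, 13.5 and 12.1 to 1.5, 4.71 and 4.78 CPM and Mobp, a myelin protein, from 163, 162 and 193 to 47.5, 71.1 and 88.6 CPM (-1.79 ± 0.38 and -1.32 ± 0.22). Tumor library 1 was lowest and none overlapped. Bcas1, a marker of newly formed oligodendrocytes, went from 52, 69.9 and 50.2 to 235, 139 and 193 CPM (1.72 ± 0.22), Ugt8a, which makes a myelin lipid, from 65.6, 84 and 76.3 to 185, 181 and 184 CPM (1.28 ± 0.13), and Gjc3, a connexin, rose by 2.14 ± 0.24. Cnp, Apod and Tspan2 at -0.09 ± 0.11, 0.09 ± 0.13 and -0.23 ± 0.18 did not pass.

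Vessel genes changed less. Of 28 endothelial genes, 3 rose, 7 fell and 18 did not pass (median -0.18), and 2 fell without control library 1 or without control library 3 and 4 without control library 2 or when libraries were scaled by their totals. Angpt2, which loosens vessel walls, went from 2.57, 1.4 and 2.3 to 34.5, 5.19 and 6.63 CPM (2.90 ± 0.72), mostly in tumor library 1, and Mfsd2a, a lipid transporter of the blood-brain barrier, from 25.4, 24.2 and 23 to 90.8, 54.9 and 58 CPM (1.49 ± 0.18). Tek, the receptor of angiopoietins, fell from 25.1, 24.5 and 26.2 to 4.87, 16.1 and 14.4 CPM (-1.10 ± 0.34), and the junction and surface genes Cldn5, Cdh5, Pecam1 and Kdr did not pass, at -0.07 ± 0.22, -0.02 ± 0.30, -0.19 ± 0.21 and 0.13 ± 0.30. Tek did not pass without control library 1 or 3 (adjusted p from 0.054 to 0.060), and the fold of Angpt2 was 1.5 without tumor library 1. Of 24 genes of mural cells and fibroblasts, 3 rose and 6 fell. The members that rose were Igfbp2, Lum and Col3a1, an insulin-like growth factor binding protein and matrix proteins, by 2.37 ± 0.25, 2.44 ± 0.33 and 2.47 ± 0.73. Col3a1 did not pass without control library 2 or 3 or without tumor library 2 (adjusted p from 0.052 to 0.067). Of those that fell, Slc22a6, an organic anion transporter, went from 7.64, 7.08 and 8.49 to 1.1, 2.59 and 3.49 CPM and Ptgds, prostaglandin D synthase, from 466, 313 and 365 to 129, 158 and 220.4 CPM (-1.71 ± 0.38 and -1.17 ± 0.28), while Rgs5 of pericytes did not pass (0.17 ± 0.09). Choroid plexus and ependyma genes were near the limit of detection, with Ttr at 0, 3.75 and 0.83 CPM in control and 0.243, 0.951 and 0.225 CPM in tumor, and fell in 6 of 15, or in 0 without control library 2, 2 without control library 3, 3 without tumor library 2, 3 with the 6 libraries fitted alone and 2 of those with a mean of at least 5 CPM. Another 3 of the 15 rose. Of the 10 members that passed the filter in control, 6 fell and 1 rose. The number of plexus cells in each sample was not measured, and their part in other results was not tested.

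Genes of neuronal injury rose in 11 of 21 and fell in 3 (median 0.82, or 0.42 without tumor library 1), and 7 rose without control library 3. Members that rose, such as Sox11, Stat3, Jun, Atf3 and Socs3, also stand in the lists above. Sema6a, a transmembrane semaphorin, rose from 38.9, 44.7 and 39.1 to 99.3, 102 and 98.9 CPM (1.29 ± 0.16) with like levels in all tumor libraries, and Tnfrsf12a from 2.77, 1.81 and 2.3 to 37.8, 9.17 and 6.3 CPM (2.96 ± 0.65), highest in tumor library 1 and with a fold of 1.76 without it. The neuropeptide genes Nts and Adcyap1 fell by 1.02 ± 0.23 and 0.80 ± 0.19.

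Of 18 long noncoding RNAs, 7 fell and 4 rose, or 2 rose without control library 3 or among genes with a mean of at least 5 CPM. Neurons express several of those that fell: Meg3 went from 1595, 2203 and 1977 to 421, 831 and 1103 CPM, Miat from 433, 420.4 and 438 to 104, 207 and 219 CPM, and Mirg, of the same imprinted region as Meg3, from 27.5, 25 and 26.1 to 6.78, 10.1 and 9.05 CPM (-1.29 ± 0.28, -1.29 ± 0.26 and -1.60 ± 0.16). Each was lower in every tumor library. Mir17hg, the host of a cluster of miRNAs, rose from 0.947, 1.05 and 1.28 to 7.87, 2.55 and 3.26 CPM and Pvt1, a neighbour of Myc, from 18.9, 17.9 and 19.3 to 60.8, 33.8 and 25.1 CPM (2.06 ± 0.45 and 1.10 ± 0.27), while Malat1 and Neat1 did not pass. Without tumor library 1 the fold of Mir17hg was 1.4. Small nucleolar and Cajal body RNAs rose in 5 of 17 (29.4%, near the 24.5% of all symbols) and varied among the controls, so that 1 rose without control library 2 or without control library 3, 8 without control library 1 and 3 without tumor library 1. Rpph1, the RNA of ribonuclease P, was at 1751, 958 and 1058 CPM in control and 3855, 2348 and 2240.4 CPM in tumor (1.16 ± 0.34), with control library 1 nearest to tumor. Rpph1 did not pass without control library 2 or 3 (adjusted p from 0.067 to 0.068).

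Over all genes that passed, whose mean reached 10 CPM and whose groups did not overlap, the largest increases outside the genes already given were those of Pnlip, Hhipl2, Nxf3, Dmrta1 and Meox1 (transcription factors), Prokr1 (a prokineticin receptor), Hist1h3c (a histone), Tmem26 and Tubb6 (a tubulin), with log2 folds in that order of 6.29 ± 0.63, 6.12 ± 0.82, 5.90 ± 1.34, 5.74 ± 0.45, 5.68 ± 0.42, 5.70 ± 1.15, 5.35 ± 0.59, 5.27 ± 0.58 and 5.27 ± 0.87. Pnlip, pancreatic lipase, was at 5.14, 0.995 and 0.319 CPM in control and 237, 146 and 112 CPM in tumor (adjusted p = 3.6e-05). It was the largest of them, and control library 1 held more of it than the other controls. Pnlip, Hhipl2, Nxf3, Meox1, Prokr1, Hist1h3c and Tubb6 passed the filter on low counts only outside control. Nxf3, a relative of RNA export factors, was at 70.1, 2.98 and 3.65 CPM in tumor, far higher in tumor library 1. After Baiap3, the largest falls were those of AW551984, Otof, Kcnh4, Mirg, Htr1a, Plk5, Lamp5, Sowahb, Srrm4, Syt2, Tenm2, Trpc5, Myh11 and Grm2, from -1.87 ± 0.39 to -1.46 ± 0.33. Several are neuronal: Lamp5 of upper layers and interneurons went from 78.1, 83 and 83.2 to 12.2, 20.6 and 51.7 CPM, Tenm2, a synaptic teneurin, from 133, 137 and 131 to 29.4, 53.8 and 61.2 CPM, and Srrm4, a neuronal splicing factor, from 27.2, 27.4 and 26.3 to 5.44, 8.6 and 14.8 CPM. Lamp5 differed widely among the tumor libraries, with tumor library 3 nearest to control. Without tumor library 3 the folds of Lamp5, Kcnh4 and Plk5 were -2.31, -2.41 and -2.16. Lamp5 did not pass without tumor library 2 (adjusted p = 0.053), and Plk5 did not pass without control library 1, 2 or 3 or without tumor library 1 or 2 (adjusted p from 0.057 to 0.080). Among the increases, the folds of Hhipl2, Nxf3, Prokr1, Tmem26 and Tubb6 were 5.24, 2.94, 4.03, 4.5 and 4.01 without tumor library 1. Those of Pnlip, Hhipl2, Nxf3, Prokr1, Meox1, Hist1h3c and Tubb6 were 7.94, 7.27, 6.87, 7.32, 6.41, 5.95 and 6.04 without control library 1.

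The same contrast in RNA bound to tagged ribosomes (IP) was the most like comparison. The difference between both changes was tested over all 18 libraries, without pairing input and IP. Of 16016 symbols, 8 had a larger tumor effect in IP and 3 a smaller one (11 symbols, 0.0687%), and 528 had an unadjusted p under 0.05. Input and IP libraries of the same number deviated together from their groups, and with that number as a block 112 of 15775 symbols (0.710%) differed, 92 larger and 20 smaller in IP, against 6 and 4 in the same 12 libraries without the block. Without 1 library at a time the number with a larger effect was 17 without tumor IP library 1, 6 without tumor input library 1 or 2, and 5 without any other control or tumor library, and the number with a smaller effect ranged from 0 to 3, with 0 without control IP library 3. None of the members of the 43 lists tested was among the 11. Whether any was among the 112 called with the block was not examined. Median folds in IP and in input were 4.19 and 4.61 for mitosis, 2.96 and 2.73 for glioma-lineage receptors, -0.82 and -0.88 for excitatory neurons, and 1.27 and 0.89 for collagens and laminins. Myh9, nonmuscle myosin, had a log2 fold of 0.77 in input and 2.76 in IP, a difference of 1.95 ± 0.20 (adjusted p = 0.00021). Input levels of Myh9 were 97.8, 95.3 and 91.3 CPM in control and 196, 131 and 163 CPM in tumor, and IP levels 76, 68.5 and 72.1 and 445, 512 and 487 CPM. Gtl3 fell in input (-0.93) and rose in IP (0.98). Limch1, Sptan1 and Dst, of the actin and spectrin skeleton, differed by 1.59, 1.57 and 1.57. Ccdc167 rose in input (0.80, adjusted p = 0.00020) and did not pass in IP (0.08). The differences of Sptan1 and Ccdc167 did not pass in the 12 libraries alone (adjusted p = 0.13 and 0.056).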

How the data were processed

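Gene counts per symbol were deposited by the authors as raw counts, 1 table for the whole series. Per the submitters' processing notes STAR, DESeq2 and mm10 were used. The counting tool, its annotation and its strand setting were not named (not given in the sources used here). Per the labels' protocols, total RNA came from RNeasy Mini columns and went into a directional NEBNext Ultra library kit. The main test was edgeR 4.0.16's quasi-likelihood F test in R 4.3.3 (trimmed mean of M values, filterByExpr with a minimum count of 10, Benjamini-Hochberg adjustment) on the 9 input libraries of control, tumor and tumor with AZD8055, an mTOR inhibitor. The last group, from another library set, did not enter the contrast. It did enter the filter, the scaling and the estimate of spread. With the 6 libraries alone, 14975 symbols were tested, 3804 were higher and 3078 lower. Standard errors are the log2 fold divided by the square root of F, and CPM are counts scaled to the normalised library size. The difference between IP and input used all 18 libraries. DESeq2 1.42.0, other scalings, filters and subsets, and leaving out each library are given under sensitivity.

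The main test of IP minus input did not pair libraries. Only the replicate block took input and IP libraries of the same condition and number as paired. Deviations of such libraries from the group means correlated at 0.355, 0.317 and 0.32 in control and at 0.886, 0.658 and 0.682 in tumor over 11906 symbols. The main fits for input and for IP minus input were run on simulated counts with few changed symbols and no outlying library, unlike these data. For input, 61.6% of changes of log2 1 and 91.8% of changes of log2 2 were found. For IP minus input the shares were 46.5% and 80.8%. The 43 gene lists (1188 symbols tested, 59 in several lists) and the rules for naming genes were chosen with earlier results of these data known; genes were named by adjusted p or size, by level where they did not pass, and by role. Coordinates and promoters are RefSeq's for GRCm38.p6, matched by symbol, with 21571 of 23420 symbols found. Summaries and plots used Python 3.11.15, pandas 2.3.3, numpy 2.4.6 and matplotlib 3.10.9.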

Additional observations from a re-analysis of the deposited data

Results flagged for a closer look

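The tumor effect differed between IP and input, by edgeR's test of the difference itself, in 9 symbols that the naming rule takes in. Myh9, a nonmuscle myosin, differed by 1.95 on the log2 scale and Gtl3, a cilium protein, by 1.88, each larger in IP. Limch1, Sptan1 and Dst differed by 1.59, 1.57 and 1.57. The input levels of Limch1 were 163, 175 and 179 CPM in control and 166, 181 and 164 CPM in tumor, against 165, 191 and 209 and 418, 679 and 576 CPM in IP. Syne2, which links nucleus and cytoskeleton, differed by 1.28, the motor Myo5a by 1.02 and Rgl2 by 0.98. Ccdc167 differed by -0.76: its input levels were 14.5, 14.4 and 14.6 CPM in control and 25.7, 24.5 and 26.2 CPM in tumor, against 24.7, 28 and 27.8 and 25.7, 29.3 and 28.4 CPM in IP. The adjusted p-values ran from 0.00021 to 0.044. With 1 library left out at a time, 67 of the 108 refits kept the call and 41 did not, and none changed direction. In the 12 control and tumor libraries alone, 6 of the 9 kept the call and 3, Sptan1 and Ccdc167 among them, did not. Input and IP were in different library sets, so the set and the kind of RNA cannot be told apart in these levels.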

How the results depend on the processing

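For tumor against control in input, the counts of 3798 higher and 3663 lower symbols stayed within 1.5 times under all alternatives: DESeq2, relative log expression, library totals, upper quartile, a mean of at least 5 CPM, no filter, the 6 libraries alone, the replicate number as a block and each library left out. The ranges were 3023 to 4463 higher and 2656 to 4160 lower. Scaling moved the split most, to 4463 and 3010 with totals, which shift the median of all symbols to 0.079, and to 3407 and 4160 with the upper quartile. The replicate block gave 3709 higher and 3156 lower; control and tumor numbers do not pair, as same-numbered deviations correlated at 0.225, -0.023 and 0.109. Of the 338 genes named or tabled, the direction turned in 1: Beta-s, whose fold ran from -0.78 without tumor library 1 to 1.84 without tumor library 2. Leaving out a library ended 56 calls among their refits.

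For the tumor effect in IP minus that in input, against 8 larger and 3 smaller, DESeq2 gave 30 and 10 and the replicate block, which pairs input with IP, gave 92 and 20; the 12 control and tumor libraries without the block gave 6 and 4. Larger effects numbered 14 with totals, 13 with the upper quartile and 13 with a mean of at least 5 CPM. With a library left out, the counts ran from 5 to 17 larger and from 0 to 3 smaller; without control IP library 3, where edgeR called 0 smaller, the cause was not tested. Depth limits low genes: a symbol needed about 0.561 CPM in 3 libraries to be tested.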
